A study of Mus musculus with 32 samples.

Results

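Cadherins and protocadherins are the calcium-dependent adhesion proteins of the cell surface, and their mRNAs were followed here between the soma and the dendrites of single neurons. Members were all genes of the table of 3′UTR counts whose symbol began with Cdh and a digit, or with Pcdh, which gave 79 of the 44081 genes: 35 non-clustered genes (23 cadherins and 12 protocadherins) and 44 clustered protocadherins (9 Pcdha, 21 Pcdhb and 14 Pcdhg). Hippocampal neurons of C57BL/6 mice at embryonic day 18 were grown in culture for 15 days, untreated and without a transgene in the labels. The dendrites and the soma of each of 16 neurons were then drawn into separate tubes (groups Dendrite and Soma, 1 library each per neuron, 32 libraries). The RNA with a poly(A) tail was copied by rounds of in vitro transcription (aRNA amplification), of which neurons 1 to 4 had 3 and neurons 5 to 16 had 2. Per the study's methods the neurons came from several cultures on several days, but which neurons shared a culture is not given in the sources used here, so that p-values measure the spread between these neurons and culture was not a term of the fits.

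In classical cadherins, the outer domains bind the same cadherin on a neighbouring cell and the inner tail holds the catenins, which link it to the actin cytoskeleton. Non-clustered protocadherins of the delta family also bind their own kind and take part in axon growth, dendrite shape and synapse formation. The clustered protocadherins lie in tandem in the Pcdha, Pcdhb and Pcdhg arrays on chromosome 18 in the mouse. Each neuron is known to use its own small choice of them, and the combination gives a dendrite a surface identity by which it avoids its own branches. Pcdha and Pcdhg mRNAs join a variable first exon to constant exons that hold the 3′UTR of the whole array, while each Pcdhb gene is a single exon with a 3′UTR of its own.

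Reads on 3′UTRs numbered 646521 to 6954420 per dendrite library and 925525 to 21169974 per soma library. The reads carry no molecular identifiers, so that counting limits cover counting error only. Levels are given as CPM, the reads of a gene per 1e+06 reads of its library after TMM scaling (edgeR's trimmed mean of M-values). They describe a share of the RNA of a library and not its amount, so that less RNA of a gene and more RNA of other genes cannot be told apart, and they are compared between compartments only, since genes differ in 3′UTR length. All 6 neuron markers had reads, with a summed level of 3194 to 14583 CPM in dendrites and 3249 to 12454 in somas. The inhibitory neuron markers summed to 1737 to 11656 in dendrites and 1509 to 20070 in somas, with Gad1 and Gad2 in every library, and the excitatory neuron markers summed to 3.97 to 553 and 27.3 to 2302. The labels do not state the neuron type. The paper reports high neuronal markers in all samples, in particular those of pyramidal cells such as Grin1 and Neurod6. Here Neurod6 had medians of 10.8 in dendrites and 14.0 in somas, with no reads in 5 dendrites and 5 somas. Grin1 had medians of 21.2 and 43.1, with no reads in 1 dendrite. The neuron type was not tested. Sums over the markers of other cells were 0 to 1857 in dendrites and 13.9 to 735 in somas for astrocytes, 0 to 384 and 0 to 10.9 for microglia, 0 to 135 and 0 to 129 for endothelial cells (Cldn5 at 0 in all libraries), and 0 to 153 and 0 to 129 for fibroblasts. Dendrites 15 and 16 stood apart, with reads on 3888 and 6252 genes against a median of 9730 in dendrites and with 35.8% and 32.4% of reads on mitochondrially encoded genes (median 13.5%). Neurons 5 and 14 had reads on more genes in dendrites (16684 and 14992) than in soma (10795 and 13905).

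Reads on members were shallow and uneven. Of the 79 members, 53 had at least 1 read in some library and 26 had none, which over the reads of all 32 libraries together allows up to 0.0200 CPM of reads assigned to their 3′UTR. Of these 26, 20 had more than 3 exon reads in some library. Dendrites had reads on 23.3 ± 9.08 members (SD, n = 16; lowest 8, median 22, highest 41) and somas on 25.4 ± 6.40 (SD, n = 16; lowest 17, median 24.5, highest 39). The soma had the larger number in 10 neurons and the dendrites in 5. With both libraries of a neuron thinned to the smaller total, the numbers expected were 23.3 ± 9.12 and 22.5 ± 5.70, with the larger number in the soma in 10 neurons and in the dendrites in 6. At 10 reads or more the soma had the larger number in 13 neurons and the dendrites in 3. Both compartments of a neuron shared 16.1 ± 7.67 members (SD, n = 16).

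To find members that differed between the compartments, the quasi-likelihood test of edgeR was fitted with the neuron as a block over genes detected (1 read or more) in 16 or more of the 32 libraries. Of 10880 genes that passed this filter, 25 were members (19 non-clustered and 6 clustered). A single member, Pcdh15, was called higher in dendrites at an adjusted p of at most 0.05, beside 0.827% of all genes, and none was called higher in somas, beside 5.71% of all genes (0 members, and 0 at an unadjusted p under 0.05 in that direction). DESeq2 on the same counts called 2 members higher in dendrites and 2 higher in somas, beside 4.26% and 46.2% of all genes. The median log2 fold change of dendrites over soma (log2FC) was 0.09 over the 25 members and -1.49 over all genes tested, and 21 of the 25 members lay above the median gene. The log2FC was above 0 in 14 of the 25 members (56%) and in 21.2% of all genes. The 44 clustered genes gave 6 of the members tested, with a median of -0.57, and the 19 non-clustered members had a median of 0.14.

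**Figure D1:**
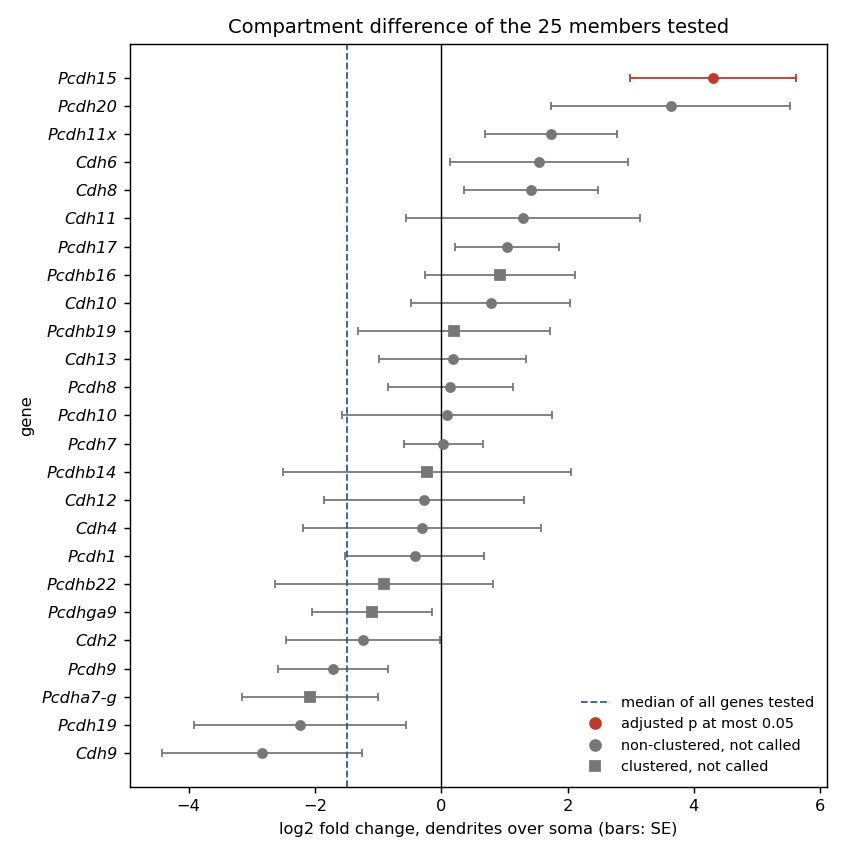
Log2 fold change of dendrites over soma (x axis) for the 25 members tested (y axis), with SE bars; circles are non-clustered and squares clustered genes, and the dashed line is the median of all genes tested at -1.49. Pcdh15, in red, is the called gene at 4.30, and 21 members lie to the right of the dashed line.

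Pcdh15, a large protocadherin best known from the tip links of hair cells, lies on chromosome 10 from 73099342 to 74649737 (GRCm38, plus strand). Its level ran from 0 to 638 CPM in dendrites, with a median of 48.7, and from 0 to 62.2 in somas, with a median of 0.439. The ranges overlapped, but 11 of the 16 dendrites had at least 10 reads, against 5 of the 16 somas. It was higher in dendrites in 13 neurons and in the soma in 1, and 2 neurons had no reads in either compartment. The log2FC was 4.30 (SE 1.32, edgeR adjusted p = 0.0407), which is 5.79 above the median gene. It was 4.18 in the neurons with 2 rounds of amplification (adjusted p = 0.107, edgeR) and 4.82 in those with 3 rounds (adjusted p = 0.850, edgeR), so that the direction was shared and neither group passed alone.

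The call was near the threshold. Leaving out neuron 1, 4, 6, 7, 12, 14 or 16 ended it, with adjusted p between 0.0514 and 0.0826, and leaving out any other neuron kept it. Over all 16 such fits the log2FC stayed between 3.97 and 4.71 (edgeR). Dendrite 16, the dendrite library with the second-lowest number of genes, carried the highest level, with 861 reads. Without neurons 5, 15 and 16, the log2FC was 3.89 (adjusted p = 0.116, edgeR). Neuron 14, which like neuron 5 had reads on more genes in dendrites, was kept in that fit. On exons, whose counts are a separate table, the log2FC was 3.94 (adjusted p = 0.0672, edgeR), with 1809 exon reads in dendrites and 677 in somas, beside 2086 and 629 on the 3′UTR. The 13 listed 3′ ends of the gene held 551 of the dendrite reads and 190 of the soma reads, so that most of its 3′UTR reads are not among those of the listed ends. Dendrites 16, 14 and 4, with 861, 106 and 34 reads on the 3′UTR, had no read on a listed end. Soma 11 held 447 of the 629 soma reads on the 3′UTR.

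In the brain Pcdh15 is also known from oligodendrocyte precursors. All 7 genes of the oligodendrocyte lineage list had reads, and 4 were tested with none called. Their log2FCs lay on the same side as that of Pcdh15, at 2.67 for Cspg4 (SE 1.49), 2.17 for Olig1 (SE 1.31), 2.07 for Mbp (SE 1.82) and 1.43 for Pdgfra (SE 1.48), with a median of 2.12. The summed level of the list ran from 1.63 to 619 in dendrites (median 52.0) and from 0 to 313 in somas (median 30.5). Dendrite 16 had 34.9, while dendrites 14 and 6, with the highest sums of 619 and 591, had Pcdh15 levels of 56.9 and 205. Dendrites 1 and 5 were high in both, with list sums of 199 and 201 and Pcdh15 levels of 187 and 101. Olig2 and Mog each had reads in 1 dendrite and 2 somas. The dendrite side was not particular to this lineage. Tested astrocyte genes had log2FCs of 3.23 (Aqp4, SE 1.41), 1.47 (Aldoc), 0.71 (Slc1a3) and 0.45 (Slc1a2). Flt1 (endothelial) had 1.65, Col1a2 (fibroblast) 0.96 and Slc17a7 (excitatory neuron) 2.97. None of these marker genes was called. Grin1, also of the excitatory neuron list, had -0.80, and the inhibitory neuron list had a median of -1.58. The part of the oligodendrocyte lineage list in the Pcdh15 result was not tested.

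Pcdh20, a non-clustered protocadherin outside the delta families, was next in size. It had 0 to 138 CPM in dendrites (median 2.42) and 0 to 261 in somas (median 0). The soma mean of 20.5 ± 65.2 (SD, n = 16) rested on neuron 3, which held 79.4% of it. The log2FC was 3.63 (SE 1.89, adjusted p = 0.182, edgeR), with 7 neurons higher in dendrites and 4 in the soma. Without the block for neuron it was -0.081. Pcdh12, known from endothelial cells, had reads in 2 dendrites and no soma and was not tested.

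The delta-1 protocadherins Pcdh1, Pcdh7, Pcdh9 and Pcdh11x all passed the filter, and none was called. Pcdh9, on chromosome 14, was read in every soma, at 35.5 to 1511 CPM (median 224), and in 13 dendrites, at 0 to 737 (median 140). The soma was higher in 12 of 16 neurons. Its log2FC of -1.72 (SE 0.87, adjusted p = 0.173, edgeR) was close to the median gene. It was -2.67 with 2 rounds of amplification and 0.89 with 3 rounds, and the difference between the rounds did not pass the test (interaction 3.42, adjusted p = 1.00, edgeR). Pcdh11x, on the X chromosome, ran the other way, with 0 to 968 in dendrites (median 122) and 0 to 195 in somas (median 35.4), and was higher in dendrites in 10 neurons. Its log2FC was 1.74 (SE 1.05, adjusted p = 0.242, edgeR). Pcdh7 had medians of 30.8 in dendrites and 22.1 in somas and was higher in each compartment in 7 neurons (log2FC 0.03, SE 0.62). Pcdh1 had medians of 0 and 0.461, within a few reads of the limit of counting.

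Among the delta-2 protocadherins, 4 of 5 were tested and none was called. Pcdh17, which guides axons and organises synapses, was the only member read in all 32 libraries. Its levels were 2.22 to 750 in dendrites (median 234) and 0.819 to 844 in somas (median 69.9), higher in dendrites in 11 neurons, with a log2FC of 1.04 (SE 0.82, adjusted p = 0.367, edgeR). Pcdh19, the X-linked gene of a female-limited epilepsy, was higher in the soma in 10 neurons, with medians of 2.56 in dendrites and 11.3 in somas and a log2FC of -2.23 (SE 1.68, adjusted p = 0.347, edgeR). Pcdh8, the activity-regulated arcadlin, spread widely. Its dendrite levels ran from 0 to 976 with a median of 8.08 and its soma levels from 0 to 179 with a median of 32.6, and the highest dendrite was 15, a library with few genes (log2FC 0.14, SE 0.99). Pcdh10 had medians of 26.0 and 15.6, with 507 in dendrite 14 (log2FC 0.09, SE 1.66). Dendrite 14 also held 92.3% of the dendrite level of Pcdh18, which had reads in 4 dendrites and 1 soma and was not tested.

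**Figure D2:**
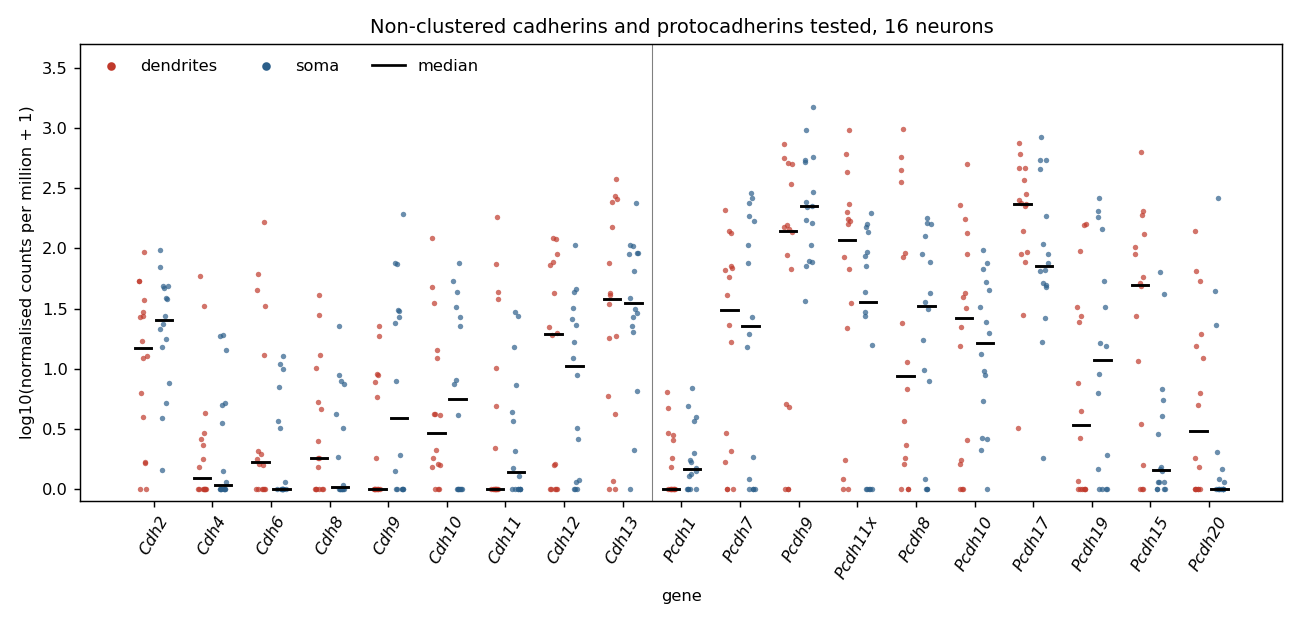
Level of the 19 non-clustered members tested in dendrites (red) and soma (blue) of 16 neurons, as log10 of CPM plus 1 (y axis), with 1 point per neuron and a bar at the median; cadherins stand to the left of the line and protocadherins to the right. Points of both colours overlap for every gene, and Pcdh15 shows medians of 48.7 in dendrites and 0.439 in somas.

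The calls among these genes differed between tests. DESeq2 called Pcdh11x (log2FC 1.80, adjusted p = 0.0492) and Pcdh15 (4.31, adjusted p = 5.11e-06) higher in dendrites, beside 4.26% of all genes. It called Pcdh9 (-1.96, adjusted p = 0.0135) and Pcdh19 (-3.01, adjusted p = 0.0109) higher in somas, beside 46.2% of all genes. With the dendrites rescaled so that the median gene was at 0, edgeR called Pcdh11x, Pcdh15 and Pcdh17 higher in dendrites, beside 5.42% of all genes.

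Of the classical type I cadherins, Cdh2 (N-cadherin, the cadherin of excitatory and inhibitory synapses) was read in every soma and in 14 dendrites. Its levels were 0.449 to 96.3 in somas (median 24.4) and 0 to 91.8 in dendrites (median 14.0), with the soma higher in 11 neurons (log2FC -1.24, SE 1.22, adjusted p = 0.475, edgeR, and 0.30 with the dendrites rescaled to the median gene). Cdh4 (R-cadherin) was also tested, with medians of 0.268 and 0.0748 that leave no direction at this depth. The epithelial Cdh1 had reads in 5 dendrites and 1 soma, at most 9 in a library, the placental Cdh3 in 4 dendrites and 2 somas, at most 4 in a library, and Cdh15, of muscle, had none.

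Type II cadherins are each known from particular groups of neurons, and 6 of 13 were tested with none called. Cdh9 had the lowest log2FC of the members tested, -2.84 (SE 1.58, adjusted p = 0.210, edgeR), with reads in 10 somas (0 to 192, median 3.91) and 7 dendrites (0 to 21.5, median 0). Its sign turned on exon counts. Cdh10 ran from 0 to 121 in dendrites (median 2.10) and from 0 to 74.0 in somas (median 4.79). Cdh12 ran from 0 to 120 (median 18.5) and from 0 to 106 (median 9.64), and Cdh11 from 0 to 182 (median 0) and from 0 to 28.4 (median 0.391). Their log2FCs were 0.78, -0.27 and 1.29, each smaller than its SE. Cdh6 and Cdh8 had 1.55 (SE 1.41) and 1.42 (SE 1.06), with adjusted p of 0.439 and 0.345 from edgeR. Cdh7 was not tested, having reads in 14 libraries, and neuron 1 held 52.9% of its dendrite level and 57.4% of its soma level. Cdh5, the cadherin of endothelial cells, had reads in 3 libraries, at most 2 reads in each. Cdh18, Cdh19, Cdh20 and Cdh22 had reads in 3 to 7 dendrites and 3 to 8 somas, with their highest levels in a dendrite for Cdh22 (151) and Cdh18 (115), and Cdh24 had no 3′UTR reads.

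Cdh13 (T-cadherin), which lacks the inner tail and is held in the membrane by a lipid anchor, had 0 to 374 in dendrites (median 36.8) and 0 to 237 in somas (median 34.1). It was higher in dendrites in 9 neurons and in the soma in 6 (log2FC 0.18, SE 1.16, adjusted p = 0.924, edgeR). The other members outside both classical types were sparse. Cdh23, the partner of Pcdh15 at the hair cell tip link, had reads in 8 dendrites and 3 somas, with 81.9% of its dendrite level in neuron 12. Cdh17 and Cdh26 had reads in 7 libraries and 1 library, and Cdh16 had none.

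Summed over the 35 non-clustered genes, dendrites had 518 to 3127 CPM (median 1505) and somas 288 to 2654 (median 863). A few genes weigh heavily in this sum. Pcdh9 and Pcdh17, with log2FCs of -1.72 and 1.04, together held 43.1% of the reads of all members. The sum was higher in dendrites in 12 of 16 neurons. That number was 10 with scaling to all 3′UTR reads, 9 with median-of-ratios factors and 16 with the dendrites rescaled to the median gene. The summed Pcdhb level was 1.32 to 252 in dendrites (median 56.8) and 6.55 to 417 in somas (median 112). The soma had the higher sum in 13 of 16 neurons, and in 12, 15 and 7 with the same other scalings, so that the direction was lost when the dendrites were rescaled. Dendrites were higher in 3 of the neurons with 2 rounds and in 0 of the 4 with 3 rounds.

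**Figure D3:**
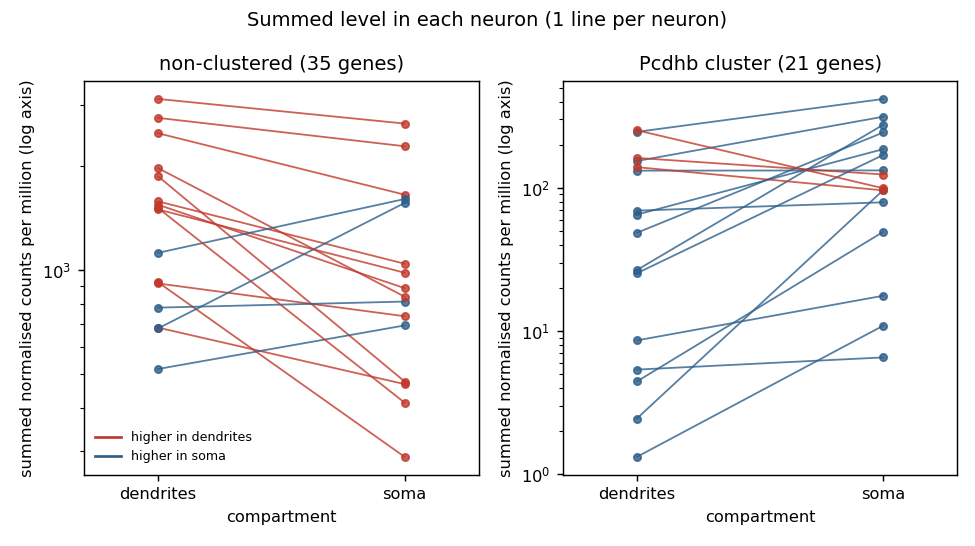
Summed CPM (log y axis) of the 35 non-clustered members (left) and the 21 Pcdhb genes (right) in dendrites and soma, 1 line per neuron, red where dendrites were higher and blue where the soma was. Red lines are 12 of 16 on the left and 3 of 16 on the right, which become 16 and 9 with the dendrites rescaled to the median gene.

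Of the 21 Pcdhb genes, 18 had reads. None was read in more than 20 of the 32 libraries, and a soma held reads on 3 to 12 of them (median 7) and a dendrite on 1 to 13 (median 4). At 10 reads or more the medians were 4.5 genes in somas and 1 in dendrites. Levels of different Pcdhb genes were compared as reads per kilobase of the 3′UTR annotated in GENCODE. On that scale 1 gene took 34.6% to 82.7% of the Pcdhb signal of a soma (median 49.4%) and 37.7% to 100% of that of a dendrite (median 68.2%). The leading gene was 1 of 9 different genes across the somas and 1 of 11 across the dendrites. The lead depended on the scale, since reads need not cover a 3′UTR evenly. By reads alone another gene led in 9 of the 16 somas and in 2 of the 13 dendrites without a tie, and the leads were 10 different genes in somas and 9 in dendrites.

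On either scale the gene in the lead differed between neurons. In 5 dendrites with fewer than 10 Pcdhb reads the lead rested on at most 9 reads, which leaves 11 neurons with 10 or more in both compartments. In 1 of these 11, neuron 5, the same gene led in both, per kilobase and by reads. There Pcdhb20 led in the soma, with 709 reads, and in the dendrites, with 132. Over all 16 neurons the lead was shared in 2 per kilobase and in 3 by reads. In neuron 14, Pcdhb21 led in the dendrites with 274 reads and Pcdhb12 in the soma with 280, on either scale. In neuron 9, Pcdhb10 held 156 of the 159 Pcdhb reads of the dendrites, while in the soma, of 3702 reads, Pcdhb20 led by reads with 1453 and Pcdhb7, with 1427, led per kilobase. Of the Pcdhb genes detected in a neuron's dendrites, 58.3% ± 27.2 (SD, n = 16) also had reads in its own soma, and 47.5% ± 8.13 on average in the somas of the other neurons. The share was higher for the own soma in 11 neurons and lower in 5. Seen from the soma, 38.5% ± 24.4 of its Pcdhb genes had reads in the own dendrites and 32.2% ± 6.11 in those of others. These shares depend on depth and are given as a description.

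**Figure D4:**
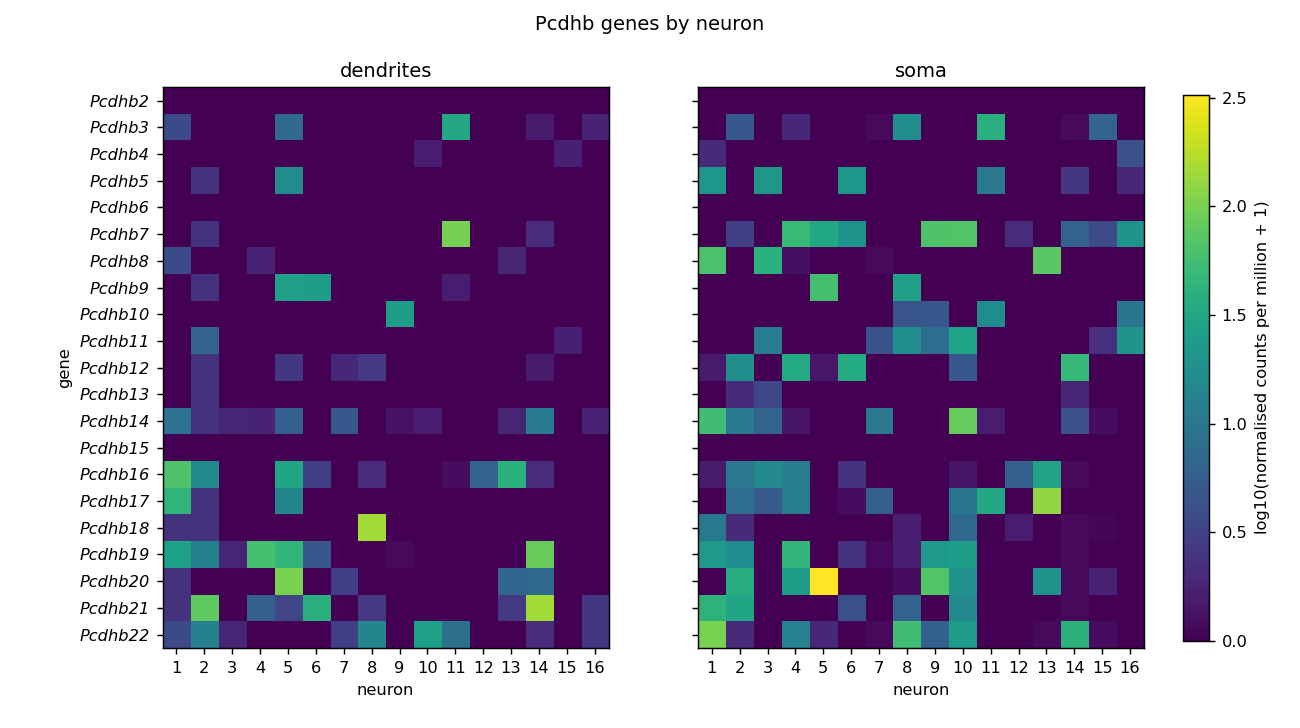
Level of the 21 Pcdhb genes (rows) in the dendrites (left) and soma (right) of neurons 1 to 16 (columns), as log10 of CPM plus 1, to be compared along a row since 3′UTR lengths differ. Reads lie on few genes per neuron, and Pcdhb20 in the soma of neuron 5 is the brightest field.

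Of the Pcdhb genes, 4 were tested and none was called. Pcdhb16 was higher in dendrites in 9 neurons and in the soma in 3, with levels of 0 to 64.2 in dendrites and 0 to 28.4 in somas (log2FC 0.92, SE 1.19, adjusted p = 0.589, edgeR). Pcdhb22 had -0.90 (SE 1.72), Pcdhb14 -0.23 (SE 2.28) and Pcdhb19 0.20 (SE 1.52), all with ranges that began at 0 in both compartments. Pcdhb7, in 13 libraries, was not tested. It had reads in 10 somas, at up to 67.3, and in 3 dendrites, of which dendrite 11 had 98.9. Pcdhb12 had reads in 7 somas, at up to 47.1, and in 5 dendrites, at no more than 1.61. Pcdhb20 reached 327 in a soma and 102 in a dendrite, both of neuron 5, and Pcdhb21 reached 147 in dendrite 14 and 41.7 in soma 1. The other Pcdhb genes with reads had them in 1 to 5 dendrites and 2 to 8 somas, and Pcdhb2, Pcdhb6 and Pcdhb15 had none on their 3′UTR.

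The Pcdha and Pcdhg arrays were all but empty in the 3′UTR table. In GENCODE, the 3′UTR of 18 of the 21 annotated Pcdha and Pcdhg members was shared whole with other genes of the array, and the lowest share was 52.9%, while no Pcdhb gene shared any base. Of the 23 listed, 20 had no 3′UTR read. Pcdhga9 had reads in 28 libraries, at 0 to 10.6 in dendrites (median 2.73) and 0.444 to 18.8 in somas (median 3.25), with a log2FC of -1.10 (SE 0.95, adjusted p = 0.413, edgeR). Its whole 3′UTR is shared, and how the counting gave reads to this gene and none to others that share it was not tested. Pcdha7-g, a symbol not found in GENCODE, had reads in 11 somas and 5 dendrites, at up to 8.67 and 12.3, and a log2FC of -2.09 (SE 1.08, adjusted p = 0.178, edgeR).

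On exon counts, Pcdhac2 was called higher in somas (log2FC -5.04, SE 1.61, adjusted p = 0.0484 among 9804 genes, edgeR). Of all genes, 2.62% were called in that direction. Pcdhac2 is a Pcdha gene that stands outside the 3′UTR table. Its call was close to the threshold of 0.05. It had exon reads in 13 somas and 3 dendrites, so that it passed the detection filter mainly through somas. Soma 9, the library with the most exon reads, held 415 of its 923 soma reads. No neuron was left out of the exon fit.

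The table of single 3′ ends held Pcdha reads that the 3′UTR table did not. Its second end listed for Pcdha2 had 893 reads in 12 dendrites and 9357 reads in 16 somas, while the 3′UTR table gave Pcdha2 97 and 29 reads in 3 libraries. Tested with edgeR among 10652 single ends by the same filter, this end had a log2FC of -2.27 (SE 1.18, adjusted p = 0.145), with a median level of 32.4 in dendrites and 69.6 in somas. It lay 0.13 below the median end. The table gives no position, so that it could not be told whether this end lies in the 3′UTR common to the array. Of the 17 ends of members that were tested, 0 were called, beside 0.723% of all ends higher in dendrites and 16.9% higher in somas (edgeR). The single end of Pcdh9 was the 1 member end with an unadjusted p under 0.05 (log2FC -2.21, SE 1.05, adjusted p = 0.113).

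Whether a compartment prefers 1 of the 2 most used 3′ ends of a gene was asked with the exact two-sided signed-rank test over neurons, where both compartments of 5 or more neurons had 10 or more reads on the pair. Of 3508 genes, 6 were members, and 2 of them had p under 0.1 (the threshold of the study), beside 8.44% of all genes. In Cdh13 the second listed end took 0.544 ± 0.396 of the reads on ends 1 and 2 in dendrites and 0.201 ± 0.0897 in somas (SD, n = 10 neurons, exact p = 0.0273, adjusted p = 0.906 over all genes), and it was used more in dendrites in 8 of 10 neurons. Soma shares were close together, at 0.0826 to 0.320, while dendrite shares covered the whole range from 0 to 1. The third listed end of Cdh13, left out of these shares, held 365 dendrite reads and 1457 soma reads. The second held 594 and 938, so that the pair was not the 2 ends with most pooled reads.

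In Pcdh7 the second end took 0.513 ± 0.394 in dendrites and 0.173 ± 0.105 in somas (SD, n = 8 neurons, exact p = 0.0391, adjusted p = 0.949), with 6 of 8 neurons higher in dendrites. With at least 20 reads the Cdh13 difference was 0.272 (exact p = 0.109), and in the neurons with 2 rounds the Pcdh7 difference was 0.297 (exact p = 0.313). No gene tested passed after adjustment. Pcdh17 had 0.223 ± 0.359 and 0.181 ± 0.161 (SD, n = 13 neurons, exact p = 0.677). In Cdh2 and Pcdh11x nearly all reads of the pair lay on a single end in both compartments. In Pcdha2 the third listed end held 97 dendrite reads, all in neuron 12, and 28 soma reads. The second listed end of Pcdha2 held 893 and 9357. The exact p was 1.00 in each of Cdh2, Pcdh11x and Pcdha2 (n = 7, 8 and 10 neurons).

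**Figure D5:**
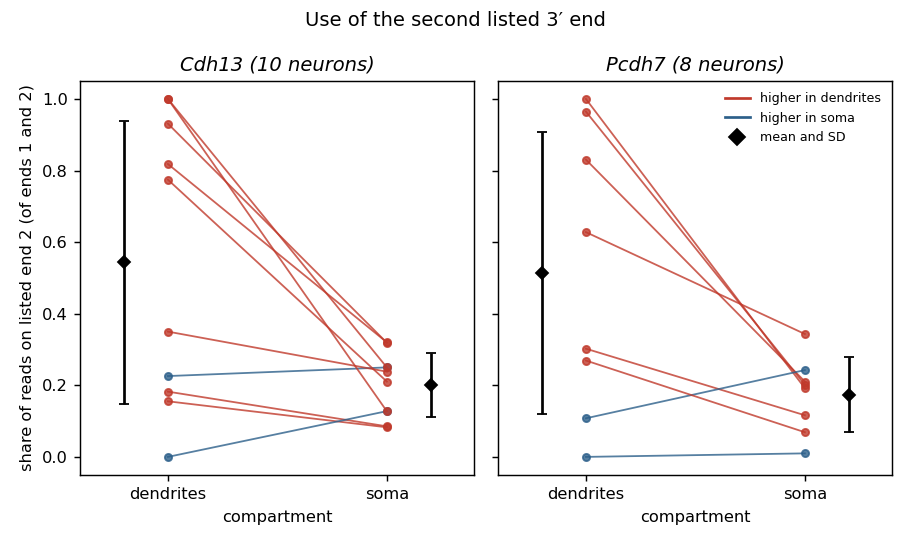
Share of reads on the second listed 3′ end among ends 1 and 2 (y axis) of Cdh13 in 10 neurons and Pcdh7 in 8 neurons, in dendrites and soma, 1 line per neuron, with diamonds at the mean and bars for the SD. Soma shares of Cdh13 lie between 0.0826 and 0.320, and dendrite shares spread from 0 to 1.

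The genes that work with cadherins gave no call in dendrites. Of 10 catenins, which tie cadherins to actin, 9 were tested and 0 called (at an unadjusted p under 0.05, 2 in favour of the soma and 0 of dendrites, edgeR), with a median log2FC of -1.22. Over all genes tested, 26.7% had an unadjusted p under 0.05 in favour of the soma and 3.55% in favour of dendrites. The shedding proteases and gamma-secretase subunits (7 tested, median -3.41) and the adaptors and effectors (16 tested, median -1.73) also had 0 called, with 4 and 5 genes at an unadjusted p under 0.05, all higher in somas (edgeR). Of 7 tested genes of the wider cadherin superfamily, 1, the giant cadherin Fat1, was called higher in somas (log2FC -5.13, SE 1.48, adjusted p = 0.0319, edgeR). Its levels were 0.181 to 129 in somas (median 27.4) and 0 to 153 in dendrites (median 0), with reads in 16 somas and 6 dendrites, and the soma was higher in 14 neurons.

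Regulators of the protocadherin clusters, by which CTCF and cohesin loop a promoter to its enhancer, gave 3 calls of 9 tested, all higher in somas, where 5.71% of all genes were called. They were the cohesin subunits Smc3 (log2FC -6.21, SE 1.41, adjusted p = 0.0124), Stag2 (-6.07, SE 1.52, adjusted p = 0.0172) and Smc1a (-6.02, SE 1.67, adjusted p = 0.0260), each by edgeR. Smc1a and Stag2 had reads in all 16 somas and in 6 and 7 dendrites. Rad21, the cohesin cleavage subunit, was read in 15 dendrites and every soma and had 0.52 (SE 0.75), and Ctcf had -2.19 (SE 1.67), neither called. The list's median was -2.19, beside -1.49 over all genes tested.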

How the data were processed

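The authors trimmed the reads, aligned them to mm10 with STAR (version 2.4.0 in the submitters' processing notes) and counted uniquely mapped reads with VERSE on the union of each gene's 3′UTRs, on single 3′ ends and on exons. All deposited values are counts, without normalization. From these, edgeR 4.0.16 in R 4.3.3 (TMM, robust quasi-likelihood fit, Benjamini-Hochberg over all genes, called at 0.05) gave the compartment difference, with DESeq2 1.42.0 as an alternative. Other values were computed with Python 3.11.15, SciPy 1.17.1 and NumPy 2.4.6. SE is the log2 fold change divided by the square root of F.

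Libraries were paired by neuron, the soma and dendrites of which are parts of a single cell. Deviations from the compartment mean (log2 of CPM plus 1, 10880 genes) correlated at 0.0887 ± 0.0772 (SD, n = 16) within neurons and at -0.00559 ± 0.0526 (SD, n = 240) between them. No 2 libraries of a compartment held identical counts (0 pairs).

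Named members were those called or with p under 0.1 in 3′ end usage, the 15 tested non-clustered members with the highest mean level, the 10 clustered members read in most libraries, the 3 largest changes in each direction and the called genes of the lists. Other members are named to account for each group. The members and lists were chosen with earlier results of these data known. Alternatives included other scalings, filters, exon counts, either amplification group, no block and each neuron left out, and the fits without neurons 5, 15 and 16 and on single ends, and the Pcdhb lead by reads, were chosen after seeing the data. Every column was mapped to a sample (0 left over). GENCODE vM21 (GRCm38) matched 77 of the 79 symbols. No sequence is shown.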

Additional observations from a re-analysis of the deposited data

Results flagged for a closer look

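Exon counts, which the comparisons above use only as an alternative, held reads of 32 cadherin and protocadherin symbols that had no 3′UTR read or stand outside the 3′UTR table (20 and 12 symbols), at more than the 3 reads that a count of 0 allows. The values are the exon reads in the library with the most. The largest were 415 for Pcdhac2 (soma 9), 365 for Pcdha3 (dendrite 9), 280 for Pcdhga2, 260 for Pcdhga5, 247 for Pcdha5 and Pcdhgb5, 136 for Pcdha7, 118 for Pcdhb2 and 106 for Pcdhga8. Pcdhgc3 had 89, Pcdhga6 86, Cdh24 71, Pcdha9 63, Pcdhgc4 54, Pcdhga11 51, Pcdha4 49, Pcdhga1 42, Pcdhga12 28, Pcdhga3 26, Pcdhgb4 25 and Pcdhga10 20. Lower still were Pcdha12, Pcdhac1 and Pcdhgb2 with 18, Pcdhb6 and Pcdhga7 with 15, Pcdhgb7 with 14, Pcdhgb1 with 9, Cdh15 with 8, and Pcdha10, Pcdha8 and Pcdhgb6 with 4. Of the 20 Pcdha and Pcdhg members without 3′UTR reads, 16 were among them.

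Pcdhac2, a Pcdha gene expressed apart from the random choice, had exon reads in 13 somas (923 reads) and 3 dendrites (9 reads). Pcdha3 had 365 exon reads in the dendrites of neuron 9 and 553 in 4 somas, and Pcdhgc3 had 100 in 5 dendrites and 1 in a soma. No cause was tested.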

How the results depend on the processing

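Of the 79 members, 54 did not pass the filter, and 26 of these had no 3′UTR read. The count of 1 member called higher in dendrites became 0 without a filter, without the neuron block, on exon counts, in the neurons of 2 rounds or of 3 rounds alone and without neurons 5, 15 and 16 (a choice made after seeing the data), 2 with DESeq2 and 3 with rescaled dendrites, and lay between 0 and 1 with 1 neuron left out. The count of 0 higher in somas became 2 with DESeq2 and 1 on exons (Pcdhac2, no member of the 3′UTR table). Members with p under 0.1 in 3′ end usage fell from 2 to 1 with at least 20 reads and with 2 rounds alone, where the Pcdh17 difference reversed to -0.0313. With at least 10 reads, 12.1 members counted per dendrite and 18 per soma.

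Over all genes, the 90 calls in dendrites and 621 in somas became 81 and 1008 with median-of-ratios factors, 590 and 89 with rescaled dendrites and 157 and 77 without the block. The median gene, at -1.49 in the main fit, also depended on the setting. It was -0.22 without the block, -0.17 without a filter and -0.62 with 3 rounds alone. Without neurons 5, 15 and 16 it was -0.98, and with median-of-ratios factors -1.74. Among members not called, log2 fold changes turned sign as follows. Without the replicate block, which also lost Pcdh15 (3.71, adjusted p = 0.0713, edgeR), Cdh10 had -0.15, Cdh12 0.89, Cdh4 0.71, Pcdh20 -0.081 and Pcdh7 -0.75, and the pairing changed no other call of a member. With rescaled dendrites, Cdh12 had 1.25, Cdh2 0.30, Cdh4 0.98, Pcdh1 0.99, Pcdhb14 1.17, Pcdhb22 0.50 and Pcdhga9 0.42. With DESeq2, Cdh13 had -0.019, Cdh4 0.20, Pcdh10 -0.18, Pcdh7 -0.067 and Pcdhb14 0.030. Median-of-ratios factors gave Pcdh10 -0.15, Pcdh7 -0.26 and Pcdhb19 -0.047, no filter gave Pcdh10 -0.072, and exons gave Cdh4 0.12 and Cdh9 1.17. The neurons of 2 rounds gave Pcdh7 -0.21 and Pcdhb14 1.05. Those of 3 rounds gave Cdh10 -0.53, Cdh12 2.42, Cdh13 -0.75, Cdh2 0.25, Cdh8 -0.40, Pcdh10 -2.49, Pcdh8 -3.06, Pcdh9 0.89 and Pcdhb16 -1.55. Without neurons 5, 15 and 16, Cdh12 had 0.063, Pcdh8 -0.73 and Pcdhb19 -0.10.

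With 1 neuron left out, values ran from -0.79 to 0.47 for Cdh12, -0.14 to 0.83 for Cdh13, -0.98 to 0.37 for Cdh4, -0.94 to 0.18 for Pcdh1, -0.35 to 0.68 for Pcdh10, -0.33 to 0.49 for Pcdh7, -0.21 to 0.84 for Pcdh8, -0.68 to 0.42 for Pcdhb14 and -0.29 to 0.67 for Pcdhb19. The cause was not tested.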
